A study of Mus musculus with 6 samples.

Results

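Toll-like receptors are membrane proteins that detect molecules of microbes and of damaged cells. Those at the cell surface bind lipoproteins, lipopolysaccharide and flagellin, and those in endosomes bind nucleic acids. All but Tlr3 signal through the adaptor MyD88, and Tlr3 and Tlr4 use the adaptor TRIF, with NF-kB and interferon regulatory factors downstream. In obese fat the family is best known on macrophages, and Tlr4 for responses to saturated fatty acids and lipopolysaccharide, while several members are also made by adipocytes, fibroblasts and endothelial cells.

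The 10 genes described here, Tlr1, Tlr2, Tlr4, Tlr5 and Tlr6 of the cell surface and Tlr3, Tlr7, Tlr8, Tlr9 and Tlr13 of endosomes, were chosen by symbol and make up 10 of the 54532 gene identifiers in the count table. All 10 were found, and all 10 passed the filter on low counts. RNA was sequenced from epididymal white adipose tissue, a visceral fat depot, of mice fed high-fat chow for 16 weeks. The knockout group had floxed PD-1 alleles (PD-1fl/fl) with Lyz2-Cre, a recombinase expressed from the Lyz2 locus in macrophages and other myeloid cells, and the control group were PD-1fl/fl littermates, so both groups carry the floxed gene and the diet. PD-1 restrains immune cells and is best known from T cells, in which Lyz2-Cre is not active. Each group had 3 libraries. The sources used here give no age, and no label ties a library to 1 animal, so p-values reflect only the spread among libraries, which may be technical.

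Library totals ranged from 20108185 to 27225533 counts. Replicate numbers follow accession order and pair nothing. Control replicate 2 went against its tissue label: its 6 adipocyte markers summed to 592 CPM (counts scaled to library size) against 12086 to 51705 CPM in the other 5 libraries, and its 7 hepatocyte markers to 187836 CPM against 4.74 to 4889 CPM. Control replicate 3 and knockout replicate 2 were next in hepatocyte markers, at 4889 and 895 CPM. Values are therefore given for all 6 libraries and, where they moved by over 1.5 times or changed a call, without control replicate 2.

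Across the family, transcripts were most abundant in knockout replicates 1 and 2, and knockout replicate 3 lay near the controls. The CPM of the 10 genes summed to 238, 296 and 74.0 in knockout replicates 1 to 3 and to 74.9, 36.0 and 88.0 in control replicates 1 to 3, from 7291, 8434 and 1907 counts against 2001, 402 and 2401. Knockout replicates 1 and 2 were above the 4 other libraries for 8 of the 10 genes, all except Tlr3 and Tlr5, where 15.9% of all genes tested had that order. Knockout replicate 3 was within or below the range of the controls for 8 of 10, all except Tlr6 and Tlr13. No share over all genes was computed for this count, and the range includes control replicate 2. It is therefore not read as a trait of the family. The plot of levels by library shows this split inside the knockout group.

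The split inside the knockout group followed the numbers in the sample titles. Knockout replicate 3 and control replicate 3 carry consecutive numbers. Knockout replicates 1 and 2 carry numbers of another series and control replicates 1 and 2 of yet another. The labels do not say what the numbers mean. Control replicates 1 and 3, also of different series, had sums over the 10 genes of 74.9 and 88.0 CPM. Single genes differed more between them, with Tlr5 at 5.02 and 11.8 CPM and Tlr13 at 13.1 and 5.17 CPM. Neither library is of the series of knockout replicates 1 and 2. The part of the series in the split was not tested. Knockout replicate 3 was above control replicate 3 for 2 of the 10 genes, Tlr6 and Tlr13, as it was for 49.4% of all genes tested. Knockout replicates 1 and 2 were both above control replicates 1 and 2 for 9 of 10, all except Tlr5, as they were for 30.2% of all genes. In these 4 libraries the number series and the genotype cannot be told apart. With the series as a term, only the consecutive pair compares the genotypes, so the signs restate the order within that pair. Of the 10 log2 fold changes 7 turned from above to below 0 in edgeR and in DESeq2, and Tlr6 and Tlr13 stayed above 0. The share of all genes that turned was not computed. For Tlr13 the value was then 1.60 ± 1.98 (SE, edgeR). Neither tool called a member. The spread in this fit came from knockout replicates 1 and 2 and from control replicates 1 and 2. Control replicate 2 has the liver profile, so the lack of calls decides little.

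**Figure D1:**
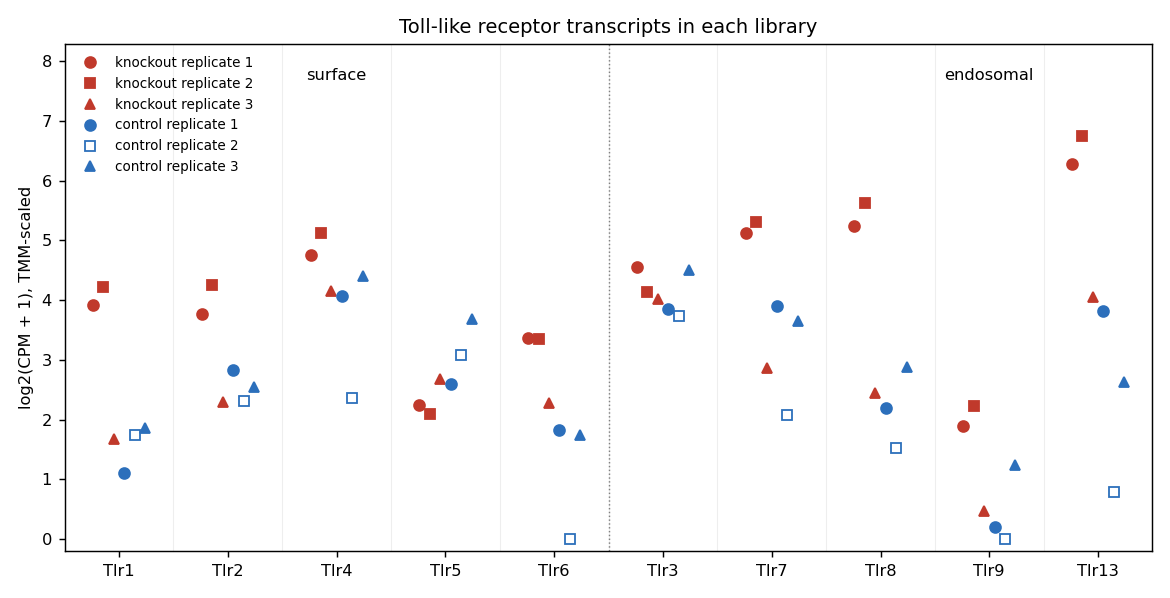
Level of each Toll-like receptor gene as log2(CPM + 1) on the vertical axis, with 1 point per library (red knockout, blue control, open square control replicate 2) and surface genes left of the dotted line. Knockout replicates 1 and 2 stand above the other libraries for 8 of 10 genes, and Tlr5 is highest in control replicate 3.

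As a sum, macrophage markers moved with this pattern. The 12 markers were Adgre1, Csf1r, Cd68, Fcgr1, Mertk, Itgam, Lyz2, Tyrobp, Aif1, C1qa, C1qb and C1qc. They summed to 4363, 5177 and 1251 CPM in the knockouts and 1168, 423 and 926 CPM in the controls. None of them was under 3 counts in any library. Lyz2, from whose locus the recombinase of the knockouts is expressed, held 1945, 2334 and 376 CPM of the knockout sums. It held 299, 123 and 369 CPM of the control sums. B cell markers summed to 28.7, 45.7 and 4.93 CPM against 2.40, 5.19 and 5.17 CPM, T cell markers to 25.7, 21.7 and 18.0 CPM against 6.78, 5.63 and 7.37 CPM, and the 5 fibroblast markers to 2795, 7014 and 1571 CPM against 890, 329.8 and 1640 CPM. As sums, T cell and macrophage markers were higher in each knockout than in any control, while B cell and fibroblast markers overlapped. Single markers did not all separate. Of the T cell markers Trac and Cd3d did, while Cd3e, Cd3g, Cd4 and Cd8a overlapped. Cd3g, for example, had 1.40 CPM in knockout replicate 3 and 2.25 in control replicate 1. Of the macrophage markers Mertk, Aif1, C1qb (187 and 216 CPM in the same 2 libraries) and C1qc overlapped, and the rest separated. Mertk had 37.0, 63.4 and 35.7 CPM in the knockouts and 53.6, 15.4 and 52.8 CPM in the controls. Trac alone held 13.3 CPM of the T cell sum in knockout replicate 3. Neutrophil markers, by contrast, were highest in control replicate 1, at 203 CPM against 12.4 to 48.2 CPM in the others. The part of these cell types in the results was not tested. In whole tissue, fewer cells of a type and less RNA per cell cannot be told apart.

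By edgeR's quasi-likelihood test none of the 10 genes passed an adjusted p of 0.05, with all 6 libraries or without control replicate 2, and 0% of the 15928 genes tested did. At an unadjusted p under 0.05, 3 of the 10 were higher (Tlr1, Tlr8 and Tlr13) and none lower, against 4.38% of all genes higher and 4.27% lower (8.65% in all). Without control replicate 2 Tlr6 joined them, so that 4 of 10 were higher and none lower, against 5.46% of all genes higher and 3.5% lower (8.96% in all). Log2 fold changes were above 0 for 9 of 10 members, with a median of 1.77, and for 48% of all genes tested, with a median of −0.03. Without control replicate 2 they were above 0 for the same 9, with a median of 1.36, and for 47.1% of all genes, with a median of −0.04. Limma-voom also called 0 members in both settings, where it called 0% of genes, with Tlr13 at an unadjusted p under 0.05 with all 6 libraries and Tlr6 and Tlr13 without control replicate 2. DESeq2 called 2 of 10, Tlr8 and Tlr13, both higher, where it called 3.37% of genes with all 6 libraries and 1.77% as higher. Without control replicate 2 it called Tlr13 alone, where it called 2.98% of genes and 2.26% as higher. On simulated counts with known changes, edgeR with all 6 libraries called none of them. Apart from these changes, each simulated gene had the same mean in all libraries, with its spread estimated from the real ones. The simulation thus held no library with a liver profile and no split inside the knockouts, and shows the tools in that simpler setting only. DESeq2 called most of the larger ones together with many unchanged genes. Without control replicate 2 edgeR called 0, 16, 36 and 46 of 50 genes simulated at 2, 4, 8 and 16 times. It also called 7 of 16529 unchanged genes there. A missing edgeR call therefore does not show that a gene was unchanged, and a DESeq2 call is not firm.

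**Figure D2:**
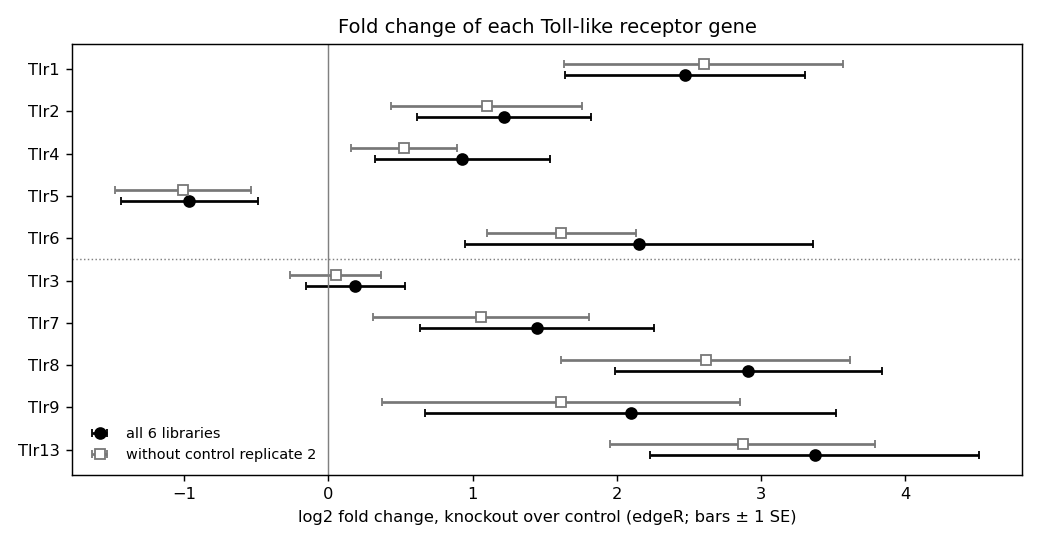
Log2 fold change, knockout over control, of each gene on the horizontal axis, from edgeR with all 6 libraries (filled circles) and without control replicate 2 (open squares), with bars of 1 standard error. Tlr13, Tlr8 and Tlr1 lie farthest to the right, Tlr3 near 0 and Tlr5 left of 0 in both fits.

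The surface receptors of lipoproteins are Tlr2 and its partners Tlr1 and Tlr6, with which it forms heterodimers. Tlr1 (chromosome 5, 64924679 to 64933563, minus strand, mm10) had 14.2, 17.7 and 2.17 CPM in the knockouts and 1.16, 2.33 and 2.64 CPM in the controls. Knockout replicates 1 and 2 were at least 6.53 times as high as knockout replicate 3, which lay between the controls, so the groups overlapped. The means were 11.3 ± 8.13 and 2.04 ± 0.779 CPM (SD, n = 3), a log2 fold change of 2.47 ± 0.83 (SE, edgeR adjusted p 0.560, DESeq2 adjusted p 0.0802).

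Tlr6 (chromosome 5, 64952031 to 64960097, minus strand), the neighbour of Tlr1, had 9.28, 9.15 and 3.84 CPM in the knockouts and 2.55, 0 and 2.35 CPM in the controls. Each knockout was above each control. Its log2 fold change was 2.16 ± 1.21 (SE, edgeR adjusted p 0.614), in which control replicate 2 had 0 counts, and 1.62 ± 0.52 without that library (edgeR adjusted p 0.540, DESeq2 0.0803). Groups that did not overlap, with knockouts above, were found for 2 of 10 members, Tlr6 and Tlr13, and for 9.54% of all genes tested, and with knockouts below for 0 of 10 and 5.61%. Without control replicate 2 the same 2 members did not overlap, against 13.4% of genes above and 12.3% below. Transcripts of Tlr1 and Tlr6 share identical sequence: 259 of the 3282 different stretches of 100 bases in Tlr1 transcripts (7.89%) also occur in Tlr6, and the longest shared run was 229 bases. The sources used here do not say how reads from shared stretches were counted, so the values of these 2 genes are uncertain there.

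Tlr2 (chromosome 3, 83836272 to 83841767, minus strand) had 12.7, 18.1 and 3.92 CPM in the knockouts and 6.14, 3.94 and 4.84 CPM in the controls. Knockout replicate 3 had the lowest value of the 6 libraries. The log2 fold change was 1.22 ± 0.60 (SE, edgeR adjusted p 0.575).

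Tlr4 (chromosome 4, 66827584 to 66930284, plus strand), the receptor of lipopolysaccharide, had 26.0, 33.9 and 16.8 CPM in the knockouts and 15.8, 4.11 and 20.2 CPM in the controls. Knockout replicate 3 lay between control replicates 1 and 3, and control replicate 2 was lowest. Its log2 fold change of 0.93 ± 0.61 (SE, edgeR adjusted p 0.673) came to 0.53 ± 0.37 without control replicate 2 (adjusted p 0.693). In the 5 other libraries Tlr4 spanned 1.06 on the log2(CPM + 1) scale, against 3.11 for Tlr1 and 4.12 for Tlr13.

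Tlr5 (chromosome 1, 182954788 to 182976044, plus strand), the receptor of bacterial flagellin, had the opposite sign. It stood at 3.76, 3.26 and 5.39 CPM in the knockouts and 5.02, 7.42 and 11.8 CPM in the controls. Knockout replicates 1 and 2 were the 2 lowest libraries, and knockout replicate 3 was slightly above control replicate 1. The log2 fold change was −0.96 ± 0.48 (SE, edgeR adjusted p 0.574), which did not pass the test.

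Among the endosomal receptors Tlr13, a mouse receptor of bacterial ribosomal RNA, had the widest range. Tlr13 (chromosome X, 106143204 to 106160493, plus strand) stood at 76.6, 107 and 15.6 CPM in the knockouts and 13.1, 0.715 and 5.17 CPM in the controls, from 8 counts in control replicate 2 to 3039 in knockout replicate 2. Each knockout was above each control, but knockout replicate 3 (15.6 CPM) was close to control replicate 1 (13.1 CPM). The means were 66.3 ± 46.3 and 6.34 ± 6.30 CPM (SD, n = 3), a log2 fold change of 3.37 ± 1.14 (SE, edgeR adjusted p 0.560), and 2.87 ± 0.92 without control replicate 2 (edgeR adjusted p 0.540). DESeq2's adjusted p was 0.0418 with all 6 libraries and 0.0185 without control replicate 2. Without control replicate 1 the log2 fold change was 4.46 (edgeR adjusted p 0.405). DESeq2's call was lost without knockout replicate 1 (log2 fold change 3.28, DESeq2 adjusted p 0.160), knockout replicate 2 (2.86, 0.359) or control replicate 3 (3.25, 0.0877).

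Tlr8 (chromosome X, 167242696 to 167264329, minus strand), a close relative of the single-stranded RNA receptor Tlr7, had 36.8, 48.2 and 4.42 CPM in the knockouts and 3.56, 1.88 and 6.34 CPM in the controls. Knockout replicate 3 lay between control replicates 1 and 3, so the groups overlapped. The log2 fold change was 2.91 ± 0.93 (SE, edgeR adjusted p 0.560, DESeq2 adjusted p 0.0425). DESeq2's call was lost without control replicate 2 (2.60, adjusted p 0.0757), control replicate 1 (2.83, 0.119), knockout replicate 1 (2.75, 0.184) or knockout replicate 2 (2.38, 0.384). Without knockout replicate 3 DESeq2 called 4 of 10 members, Tlr1, Tlr2, Tlr8 and Tlr13, and 4.07% of all genes. Without control replicate 3 it called 2 of 10, Tlr8 and Tlr9, and 9.31% of all genes.

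Tlr7 (chromosome X, 167304929 to 167330558, minus strand), which binds single-stranded RNA, had 33.9, 38.7 and 6.25 CPM in the knockouts and 14.0, 3.22 and 11.6 CPM in the controls. Here knockout replicate 3 was below control replicates 1 and 3. The log2 fold change was 1.45 ± 0.81 (SE, edgeR adjusted p 0.614). Tlr9 (chromosome 9, 106222598 to 106226883, plus strand), which binds unmethylated CpG DNA, ranked last or next to last per length in each library, with 83, 105 and 10 counts in the knockouts and 4, 0 and 37 counts in the controls. Its log2 fold change of 2.10 ± 1.42 (SE, edgeR adjusted p 0.682) rested on few counts and moved between 1.60 and 4.56 as 1 library was left out, the latter without control replicate 3.

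Tlr3 (chromosome 8, 45395665 to 45411080, minus strand), which binds double-stranded RNA, varied least. It had 22.4, 16.6 and 15.2 CPM in the knockouts and 13.4, 12.3 and 21.7 CPM in the controls. The groups overlapped over most of their range, with a log2 fold change of 0.19 ± 0.35 (SE, edgeR adjusted p 0.911), and 0.05 ± 0.32 without control replicate 2. The annotation places the antisense gene Gm45542 over 381 exonic bases of Tlr3, and no source used here gives the strand setting of the counts, so reads of the pair cannot be told apart.

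Levels of different genes were compared per length, in FPKM (fragments per kilobase of transcript, scaled to library size). In knockout replicates 1 and 2 the order was Tlr13 (15.9 and 22.7 FPKM), Tlr8 (9.15 and 12.3), Tlr7 (7.39 and 8.70) and Tlr4 (4.17 and 5.59). In knockout replicate 3 Tlr13 was first at 3.17 FPKM, followed by Tlr4 at 2.63 and Tlr3 at 2.55. The controls had other leading genes: Tlr7 at 2.98 FPKM in control replicate 1, Tlr3 at 2.22 in control replicate 2 and Tlr3 at 3.74 in control replicate 3. The order of Tlr4, Tlr7 and Tlr8 turned inside the knockout group. In knockout replicate 3 Tlr7 (1.34 FPKM) and Tlr8 (1.08) stood below Tlr4, so means over the knockouts do not rank these genes.

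The make-up of the family differed in the share of Tlr13. Of the summed FPKM of the 10 genes, Tlr13 took 30.8%, 34.2% and 21.9% in the knockouts and 17.9%, 2.04% and 6.16% in the controls, with no overlap between groups. Tlr8 took 17.8%, 18.5% and 7.45% against 5.82%, 6.43% and 9.07%. Tlr3 took 7.43%, 4.39% and 17.6% against 15.1%, 29.1% and 21.4%, and Tlr5 1.36%, 0.940% and 6.80% against 6.14%, 19.0% and 12.6%. For these 3 genes knockout replicate 3 lay within the range of the controls. All endosomal genes together took 71.6%, 71.7% and 57.0% in the knockouts and 59.2%, 47.3% and 53.2% in the controls.

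**Figure D3:**
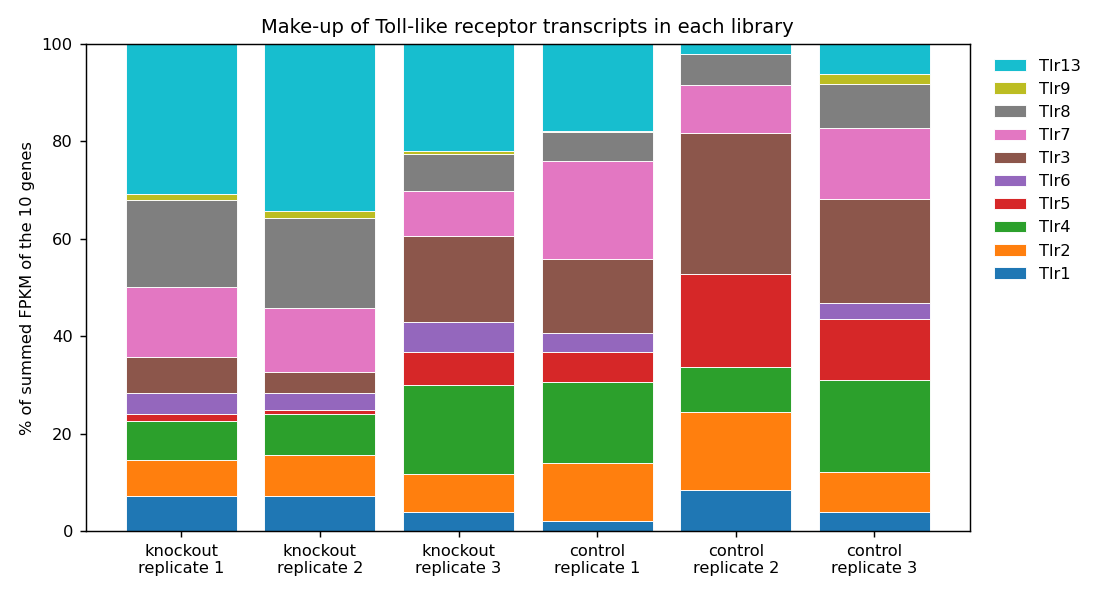
Share of each gene in the summed FPKM of the 10 Toll-like receptor genes (vertical axis, percent) in each library, as stacked bars. Tlr13 takes 21.9% to 34.2% in the knockouts and 2.04% to 17.9% in the controls.

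Next, each member was set against the macrophage markers of its own library, as log2(CPM + 1) minus the mean of the 12 markers, which was 7.33, 7.65 and 5.81 in the knockouts and 5.62, 4.23 and 5.33 in the controls. On this scale Tlr13 in the knockouts (−1.05, −0.90 and −1.76) was above all controls (−1.80, −3.45 and −2.70), although knockout replicate 3 and control replicate 1 differed by little, and 0.37% of all genes tested separated in this direction. Tlr2, Tlr3, Tlr5 and Tlr7 were lower relative to the markers in each knockout than in each control, as were 47.4% of all genes, so that 4 of 10 is near the background. For Tlr5 the values were −5.08, −5.56 and −3.14 against −3.03, −1.16 and −1.65. For Tlr3 they were −2.78, −3.51 and −1.79 against −1.77, −0.49 and −0.82. Tlr2 and Tlr7 differed by −0.99 and −0.65, knockout minus control, with Tlr7 barely separated (−2.20 in knockout replicate 1, −2.16 in control replicate 2) and overlapping at a pseudocount of 0.1 (−2.22 and −2.34), and Tlr4 by −0.80 with overlap.

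Tlr1, Tlr6, Tlr8 and Tlr9 overlapped on the same scale, with differences of −0.17, −0.06, 0.37 and −0.82. The exact two-sided permutation test over libraries gave 0.1 for Tlr2, Tlr3, Tlr5, Tlr7 and Tlr13, the smallest p that 3 against 3 libraries allow, and 0.2 after Benjamini-Hochberg adjustment over the 10 genes, so no member passed. Without control replicate 2 the difference of Tlr13 was 1.02 and that of Tlr5 −2.25. The exact permutation p was 0.2 for each, the smallest that this two-sided test allows for 3 against 2 libraries. The marker mean itself was higher in knockout replicates 1 and 2, and several of these genes are made by other cells, so a lower relative level is not a level per macrophage.

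**Figure D4:**
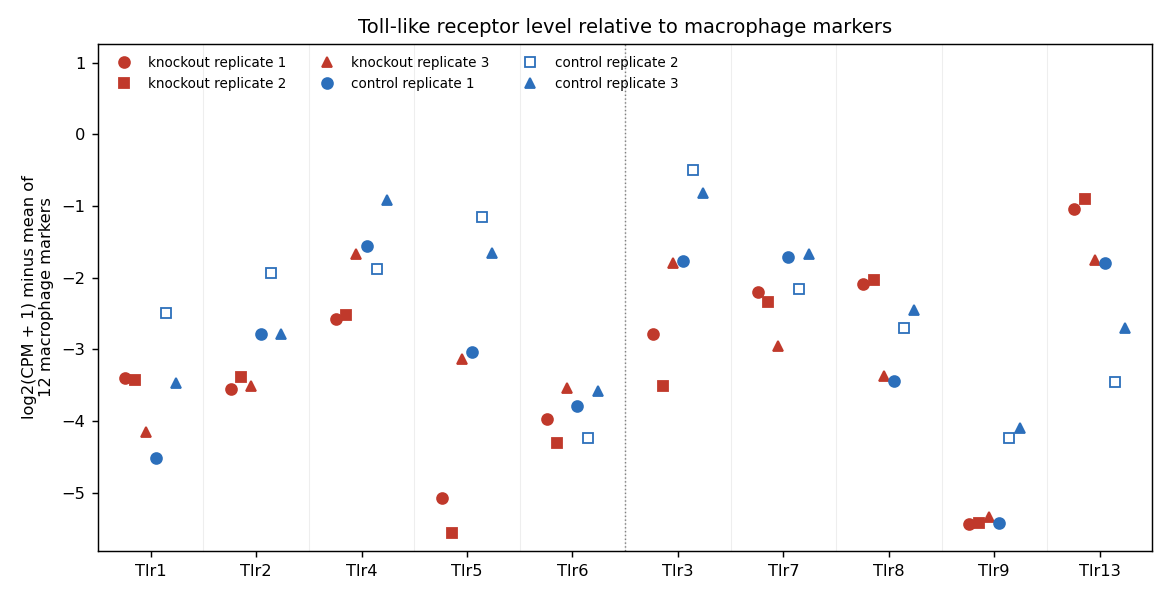
Level of each gene relative to macrophage markers (vertical axis, log2(CPM + 1) minus the mean of 12 markers), with 1 point per library and symbols as in the plot of levels. Tlr13 in all knockouts lies above the controls, while Tlr2, Tlr3, Tlr5 and Tlr7 lie below them.

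Likeness between patterns was measured as the mean absolute difference of log2(CPM + 1) values, each gene centred on its own mean over the 6 libraries. The genes nearest to Tlr13 were Cd68, which encodes a lysosomal glycoprotein of macrophages (0.18), and C3ar1, the receptor of complement fragment C3a (0.26). Nearest to Tlr8 were Efr3b (0.15) and Lyz2, lysozyme (0.22). Nearest to Tlr1 were Prex1 (0.16) and Cybb, the catalytic subunit of the phagocyte oxidase (0.18), and nearest to Tlr7 were Siglec1, a sialic acid receptor of macrophages (0.22), and Gdpd1 (0.23). Tlr4 was nearest to Mapre2 (0.07) and Itgbl1 (0.08), Tlr3 to Ttll5 (0.05) and Tti1 (0.07), and Tlr5 to B430119L08Rik (0.11) and Eml5 (0.16). Tlr2 was nearest to Flvcr1 (0.08) and Rasa1 (0.15), Tlr6 to Trim47 (0.08) and Cmtm3 (0.10), and Tlr9 to Sertad4 (0.09) and Plk2 (0.10). Control replicate 2, with its liver profile, entered each of these distances, so the order describes these 6 libraries alone. Within the family the closest pair was Tlr2 and Tlr9 (0.33), followed by Tlr4 and Tlr6 (0.37).

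Promoter sequences are shown for Tlr13 and Tlr8, the 2 genes called by DESeq2, for Tlr1 (1 of its 2 entries), which was next by its DESeq2 p-value, and for Tlr5, the gene of opposite sign. Each runs 5′ to 3′ from 250 bases before to 50 bases after the transcript start (RefSeq, GRCm38.p6). Capitals mark GAGGAA on either strand, the core of sites bound by PU.1, the myeloid transcription factor encoded by Spi1. The interval of Tlr13 is chrX:106143025-106143324, plus strand, that of Tlr8 chrX:167264280-167264579, minus strand, that of Tlr1 chr5:64933509-64933808, minus strand, and that of Tlr5 chr1:182954538-182954837, plus strand.
Tlr13: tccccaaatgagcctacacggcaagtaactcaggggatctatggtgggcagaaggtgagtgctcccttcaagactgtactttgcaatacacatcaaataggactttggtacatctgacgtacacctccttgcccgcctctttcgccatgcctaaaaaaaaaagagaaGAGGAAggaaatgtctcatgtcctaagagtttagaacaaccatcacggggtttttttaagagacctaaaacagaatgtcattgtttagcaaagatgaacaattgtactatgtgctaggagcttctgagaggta
Tlr8: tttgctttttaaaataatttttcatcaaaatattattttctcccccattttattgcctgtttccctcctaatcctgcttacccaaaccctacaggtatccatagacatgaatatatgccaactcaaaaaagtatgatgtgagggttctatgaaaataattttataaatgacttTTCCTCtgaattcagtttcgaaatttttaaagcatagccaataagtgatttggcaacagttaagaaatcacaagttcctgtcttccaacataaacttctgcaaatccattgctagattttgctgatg
Tlr1: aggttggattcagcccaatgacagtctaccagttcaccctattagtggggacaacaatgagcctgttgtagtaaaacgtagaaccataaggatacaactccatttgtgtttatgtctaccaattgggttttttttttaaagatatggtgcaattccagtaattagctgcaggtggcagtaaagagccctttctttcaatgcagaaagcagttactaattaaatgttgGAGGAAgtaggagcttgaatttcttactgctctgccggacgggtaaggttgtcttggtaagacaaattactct
Tlr5: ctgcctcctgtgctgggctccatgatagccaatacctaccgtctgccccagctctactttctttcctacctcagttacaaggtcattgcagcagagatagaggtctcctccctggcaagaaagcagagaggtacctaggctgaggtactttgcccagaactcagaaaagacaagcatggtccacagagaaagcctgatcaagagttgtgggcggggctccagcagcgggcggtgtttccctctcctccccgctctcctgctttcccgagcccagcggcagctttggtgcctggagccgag

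The PU.1 core was found in promoters of 4 of the 8 members with an entry, Tlr1, Tlr8, Tlr9 and Tlr13, which is 4 of their 10 promoter entries, and in 28.3% of all 32851 promoters of this length. It started 83 bases before the start of Tlr13 and 77 before that of Tlr8, on opposite strands, and 23 before that of Tlr1. The other Tlr1 entry, which is not shown, had no match to any of the 3 motifs searched. Tlr9 had 2 matches, and the Tlr5 window had no match to any of the 3 motifs searched. The interferon-stimulated response element (GAAA, any 2 bases, GAAA), which occurs in 3.44% of promoters, matched at 2 overlapping positions in 1 of the 2 Tlr6 promoters, and the NF-kB motif (GGGA, any 1 base, TTTCC, in 0.411% of promoters) matched once, in that of Tlr3. Both strands were searched, and matches to different motifs did not overlap. A match describes the letters in the window and is not a measured binding site.

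The other genes of the pathway were read from the same fit. A list of 9 genes held coreceptors and related proteins, together with Tlr11 and Tlr12, which are receptors themselves. Of these, 7 had log2 fold changes above 0 and 2, Ly96 and Tlr12, below. The median of 0.93 was the value of Tlr11, a gene of few counts. In 4 of the 9 all knockouts were above all controls. Over all genes tested, 48% had log2 fold changes above 0, and 9.54% had all knockouts above all controls. EdgeR called 0 and DESeq2 called 2, both higher, where DESeq2 called 1.77% of all genes as higher. Cd180, a Toll-like receptor homologue of B cells and macrophages, had 36.4, 62.0 and 6.40 CPM in the knockouts and 0.786, 1.16 and 2.75 CPM in the controls, a log2 fold change of 4.46 ± 0.97 (SE, edgeR adjusted p 0.560, DESeq2 0.000655). Ly86, which encodes the partner of CD180, had 44.4, 37.9 and 18.6 CPM against 12.5, 11.4 and 11.1 (1.52 ± 0.38 SE, edgeR adjusted p 0.560, DESeq2 0.0372). Each knockout was above each control for both. DESeq2 called both without control replicate 2 as well.

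Cd14, the lipopolysaccharide-binding coreceptor, had 85.8, 80.2 and 30.2 CPM in the knockouts and 29.0, 3.58 and 21.7 CPM in the controls (1.85 ± 0.80 SE, edgeR adjusted p 0.560). Ly96, which encodes MD-2, the subunit of the Tlr4 complex that holds lipopolysaccharide, had 6.18, 6.24 and 3.73 CPM against 7.30, 11.1 and 2.97 (−0.40 ± 0.57 SE, edgeR adjusted p 0.878), and its sign turned without control replicate 2 (0.08 ± 0.52 SE, adjusted p 0.971). Of the 2 mouse family members outside the 10, Tlr11 had at most 35 counts in any library. Tlr12 was highest in control replicate 2, the library with the liver profile, at 24.1 CPM, next in control replicate 3 at 2.75 CPM, and at most 0.702 CPM elsewhere.

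The endosomal receptors need the chaperone UNC93B1 to leave the endoplasmic reticulum and proteases to cut their ectodomains. Of 10 such trafficking and processing genes 8 were above 0, with a median of 0.81. DESeq2 called 2, both higher, where it called 1.77% of all genes as higher. Unc93b1 had 210, 279 and 83.2 CPM in the knockouts and 57.0, 36.5 and 62.0 CPM in the controls (1.88 ± 0.52 SE, edgeR adjusted p 0.560, DESeq2 0.0384, and 0.0552 without control replicate 2). Ctss, the protease cathepsin S, had 757, 909 and 246 CPM against 105, 74.8 and 72.9 (2.92 ± 0.61 SE, edgeR adjusted p 0.560, DESeq2 0.000655). All knockouts were above all controls for both genes. Lgmn (2.01) and Ctsb (1.34), which encode the proteases legumain and cathepsin B, also had knockouts above controls in each library and were not called by either tool.

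The 22 adaptors and kinases were evenly divided, with 10 above 0 and 12 below, a median of −0.02, and 0 called by edgeR or DESeq2 with all 6 libraries. Myd88 had 25.3, 32.5 and 17.0 CPM in the knockouts and 24.2, 32.8 and 17.2 CPM in the controls (0.01 ± 0.38 SE, edgeR adjusted p 0.995). Ticam1, which encodes TRIF, had 11.6, 16.0 and 8.65 CPM against 4.38, 27.3 and 8.95, and its log2 fold change changed sign from −0.16 ± 0.69 to 0.88 ± 0.45 (SE) without control replicate 2 (edgeR adjusted p 0.969 and 0.597). Ticam2, the adaptor that links TRIF to Tlr4, stood at 2.20 (edgeR adjusted p 0.595), with 0 counts in control replicate 2. Pik3ap1, a phosphoinositide kinase adaptor, stood at 1.78 and at 2.50 without control replicate 2 (edgeR adjusted p 0.593 and 0.559). In knockout replicate 3 Pik3ap1 had 4.42 CPM, the lowest of the 6 libraries, against 36.0 and 60.8 CPM in knockout replicates 1 and 2. Chuk, the kinase subunit IKKα, stood at −1.64, and at −0.31 with control replicate 2 left out. That library held 269.9 CPM of Chuk, against 38.0 to 51.7 CPM in the rest. Ikbkg, the scaffold NEMO, stood at −0.41 with a knockout range of 39.6 to 40.2 CPM and controls of 49.6 to 59.1 CPM, and its edgeR adjusted p was 0.631.

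Of 12 inhibitors of the pathway 9 were above 0, with a median of 0.68, and neither edgeR nor DESeq2 called any with all 6 libraries. Irak3, a kinase-dead inhibitor of MyD88 signalling in macrophages, had 17.3, 16.3 and 11.2 CPM in the knockouts and 13.9, 3.58 and 15.0 CPM in the controls (0.46 ± 0.57 SE, and 0.06 ± 0.29 without control replicate 2, edgeR adjusted p 0.853 and 0.960). Atf3, a stress factor that represses inflammatory genes, had 111, 129 and 31.6 CPM against 4.38, 1.79 and 25.1 (3.12 ± 1.09 SE, edgeR adjusted p 0.560, DESeq2 0.0593, and 0.0479 without control replicate 2). Zc3h12a (0.97), an RNase of inflammatory transcripts, Trim30a (0.80) and Il1rl1 (1.78, and 1.22 without control replicate 2), the receptor of interleukin-33, did not pass either test.

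Transcription factors had 10 of 12 members above 0, against 48% of all genes, and a median of 1.02. DESeq2 called 3, all higher, where it called 1.77% of all genes as higher. Spi1 (PU.1) had 94.3, 146 and 32.7 CPM in the knockouts and 16.9, 11.7 and 13.2 CPM in the controls (2.70 ± 0.58 SE, edgeR adjusted p 0.560, DESeq2 0.00392). Irf8, a factor of myeloid and B cells, stood at 2.20 ± 0.53 (SE, DESeq2 adjusted p 0.0167) and Irf5, which acts downstream of MyD88, at 1.90 ± 0.49 (SE, DESeq2 0.0374). For these 3 genes the knockouts were above the controls, and DESeq2 called them without control replicate 2 as well. Nfkb2, an NF-kB subunit, stood at 1.26 ± 0.39 (SE, edgeR adjusted p 0.560).

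The genes that the receptors induce were low in most libraries. Il12a, Il12b and Ifnb1 did not pass the filter on low counts. Of the other 17 target genes 11 were above 0, with a median of 0.72, and with all 6 libraries 0 were called by edgeR or DESeq2. DESeq2 called 2 as higher without control replicate 2, the chemokine genes Ccl4 and Ccl5, where it called 2.26% of all genes as higher. Ccl4, named after its values were seen, had 43, 79 and 11 counts in the knockouts and 3, 4 and 4 in the controls (DESeq2 3.58 without control replicate 2, adjusted p 0.0494). Ccl5 had 6.80, 10.3 and 7.22 CPM in the knockouts and 3.74, 5.90 and 2.71 CPM in the controls (0.98 ± 0.46 SE, edgeR adjusted p 0.560), and 1.33 by DESeq2 without control replicate 2 (adjusted p 0.0494). The costimulatory ligand gene Cd80 stood at 1.40 (edgeR adjusted p 0.560), and the chemokine genes Ccl2 and Ccl3 at 1.35 and 1.60 (edgeR adjusted p 0.626 and 0.713). For both chemokine genes the groups overlapped. Knockout replicate 3 had 8.34 CPM of Ccl2 and 0.505 CPM of Ccl3, and the highest control had 11.2 and 2.17 CPM. Il1b, which encodes interleukin-1β and was chosen here after its values were seen, had the opposite sign, with 41, 28 and 8 counts in the knockouts and 52, 29 and 36 in the controls (−1.14 ± 0.71 SE, edgeR adjusted p 0.660). Without control replicate 2 the medians of the 6 lists were 0.75 for coreceptors, 0.96 for trafficking, 0.11 for adaptors and kinases, 0.36 for inhibitors, 0.82 for transcription factors and 0.38 for target genes.

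**Figure D5:**
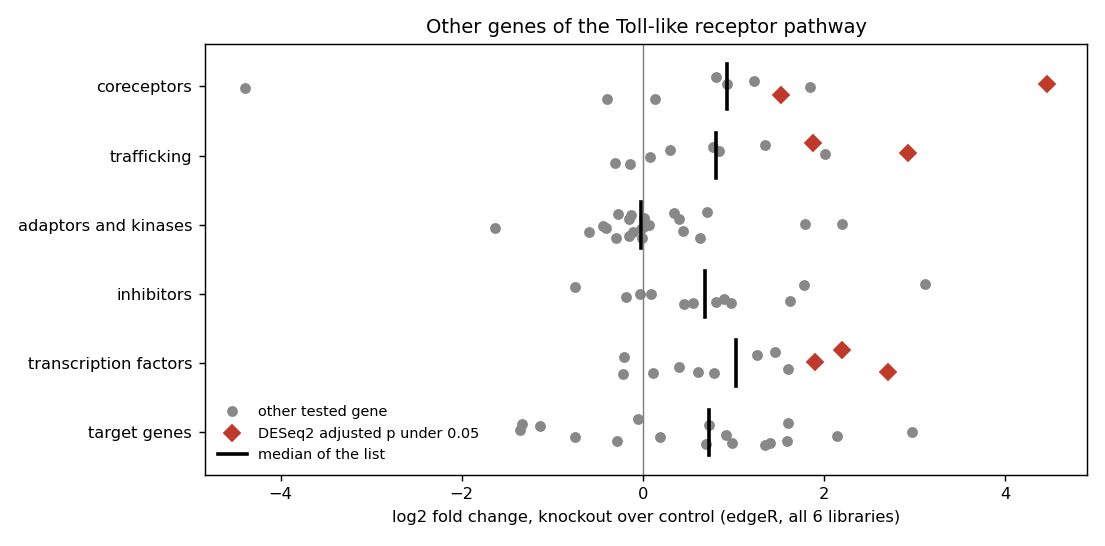
Log2 fold change, knockout over control, of the tested pathway genes in 6 lists (horizontal axis, edgeR with all 6 libraries), with red diamonds for genes at a DESeq2 adjusted p under 0.05 and a bar at the median of each list. Medians lie between −0.02 for adaptors and kinases and 1.02 for transcription factors, and the DESeq2 calls are in 3 of the lists.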

How the data were processed

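RNA sequencing of epididymal fat gave 3 knockout and 3 control libraries. Per the submitters' processing notes, reads were handled with featureCounts 1.5.0-p3, StringTie 1.3.3b, HISAT2 2.0.5 and fastp on build mm10. The sources used here do not give the counting rules. The authors deposited raw counts per gene, which were tested, and FPKM values, which served for levels per length and for alternatives.

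Genes were tested with edgeR 4.0.16 in R 4.3.3 (quasi-likelihood, robust, filterByExpr by group, TMM, Benjamini-Hochberg over all genes tested at 0.05). CPM values are TMM-scaled over the genes tested. Each standard error was the log2 fold change divided by the square root of the F statistic. DESeq2 1.42.0 and limma 3.58.1 (voom, or log2 FPKM with pseudocounts of 1 and 0.1), other scalings and filters and each library left out were alternatives. The tests were checked on simulated counts with known changes. Apart from these changes each gene had the same mean in all libraries, so the liver profile and the split inside the knockouts were not simulated. With all 6 libraries edgeR recovered none of them at any size, and DESeq2 recovered most of the larger ones but also called many unchanged genes. Without control replicate 2 edgeR recovered 0 of 50 at 2 times, 16 at 4 times, 36 at 8 times and 46 at 16 times. Number series in the sample titles were added as a term after the data were seen.

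Positions are from GENCODE on GRCm38, the assembly of mm10. Genes were matched by identifier. Fewer than 3 counts was taken as the floor. The members and gene lists were chosen with earlier results of these data known. Named genes are the 10 members, Cd14, Ly96, Unc93b1, Myd88, Ticam1 and Irak3, up to 4 genes per pathway list of smallest edgeR p at a mean log CPM of at least 1, and the 2 genes nearest in pattern to a member by the mean absolute difference of centred values. Tlr11, Il1b and Ccl4 were added after their values were seen. Figures were drawn with matplotlib 3.10.9.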

Additional observations from a re-analysis of the deposited data

How the results depend on the processing

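The count of genes called was 0 with edgeR under each scaling, filter, threshold and left-out library, with the number series, with limma-voom and with FPKM, and 525 with DESeq2 (470 without control replicate 2). DESeq2 called 2 members, and 1 without control replicate 2. In DESeq2 fits added after the data were seen, each leaving out 1 other library, it called 119, 329 and 662 genes without knockout replicates 1, 2 and 3, 1109 and 1532 without control replicates 1 and 3, and 0 to 4 members. With the number series of the titles as a term, also added, DESeq2 called 39 genes and 0 members. Of 240 alternative log2 fold changes of the members, over 24 settings, 215 kept their sign and side of the threshold, 10 passed it, all in DESeq2 fits, and 15 turned sign. Of these, 1 was Tlr3 at −0.0072 by DESeq2 without knockout replicate 1. The others came with the number series: in edgeR Tlr1 −0.28, Tlr2 −0.30, Tlr4 −0.27, Tlr3 −0.52, Tlr7 −0.89, Tlr8 −0.52 and Tlr9 −1.79, and in DESeq2 −0.30, −0.32, −0.29, −0.53, −0.91, −0.54 and −1.83 in the same order. Without TMM the median of all genes moved by 0.37, and the members by 0.19 to 0.46, all upward with no change of sign. Relative to macrophage markers, the difference of Tlr1 turned to 0.33 without control replicate 2 and to 0.098 with a pseudocount of 0.1, which also turned Tlr6 to 1.08 and Tlr9 to 0.45; both have 0 counts in control replicate 2. The median of adaptors and kinases turned to 0.11 without control replicate 2. The causes were not tested. Counts of 0 to 37 in controls limit Tlr9. No paired analysis was possible because no number in the labels is shared between groups.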
